A study of Mus musculus with 12 samples.

Results

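Collagens are the main structural proteins of the arterial wall, and all 37 collagen genes named for this account were looked up on the array by their annotated probes. Of the 45281 probes, 80 were annotated to 35 of the 37 genes, while Col6a3 and Col12a1 had no annotated probe here. A probe was tested when its signal was detected (detection p under 0.05 against the array's negative controls) on all 3 arrays of at least 1 group. By that rule 35 collagen probes for 23 genes were tested, among 10596 genes in all. The arrays held RNA rich in endothelial cells, flushed from the lumen of mouse carotid arteries with lysis reagent. Male C57Bl6 mice, 9 weeks old per the labels, had daily intraperitoneal injections for 3 weeks, either of 5-aza-2'-deoxycytidine (5Aza), which blocks DNA methyltransferases, at 0.2 mg/kg/day or of saline. During the treatment the left carotid artery (LCA) was partly ligated by closing 3 of its 4 caudal branches, and both carotids were taken 7 days later. The 4 groups were the ligated left artery of 5Aza mice (5Aza LCA), the ligated left artery of saline mice (saline LCA), the unligated right artery of 5Aza mice (5Aza RCA) and the unligated right artery of saline mice (saline RCA). Each group had 3 samples, and each sample pooled 3 arteries. Every mouse had been operated on and no group held a left artery without ligation, so ligation cannot be told apart from the side of the body. Nothing in the labels says that pools of 1 group came from different batches of mice, so p-values cover the variation among these pools, which may be technical.

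A collagen molecule is a helix wound from chains that separate genes encode, so the genes of 1 type are read together. Fibrillar collagens such as types I, III and V make the load-bearing fibres of the vessel wall. Type IV collagen forms the sheet-like network of basement membranes, which lies directly under the endothelium, and type VIII forms hexagonal networks made by endothelial and smooth muscle cells of vessels. The low and oscillating flow that partial ligation leaves is known to activate the endothelium, and 5Aza lowers the methylation of cytosines that precede a guanine (CG).

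Type IV genes lie in pairs that are read in opposite directions from neighbouring starts. Upstream windows are shown for Col4a4 and Col8a1, which differed with flow, and for Col4a2, which did not and whose start lies beside that of Col4a1. Each window runs from 250 bases before to 50 bases after the RefSeq start in build GRCm38.p6, is read 5' to 3' along the gene's strand, and has every CG in capitals. The Col4a4 window (chr1:82586800-82587099, minus strand) also holds the annotated start of its neighbour Col4a3, which runs the other way. The Col4a2 window (chr8:11312555-11312854, plus strand) overlaps the window of Col4a1 by 78 bases, and those starts lie 21 bases apart. The Col8a1 window is chr16:57754688-57754987 on the minus strand.
Col4a4: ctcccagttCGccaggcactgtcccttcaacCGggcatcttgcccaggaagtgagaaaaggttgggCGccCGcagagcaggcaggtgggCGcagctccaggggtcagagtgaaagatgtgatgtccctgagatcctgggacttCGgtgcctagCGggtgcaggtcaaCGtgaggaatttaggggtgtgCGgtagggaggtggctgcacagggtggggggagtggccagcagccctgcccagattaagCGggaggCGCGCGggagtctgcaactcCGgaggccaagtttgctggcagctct
Col4a2: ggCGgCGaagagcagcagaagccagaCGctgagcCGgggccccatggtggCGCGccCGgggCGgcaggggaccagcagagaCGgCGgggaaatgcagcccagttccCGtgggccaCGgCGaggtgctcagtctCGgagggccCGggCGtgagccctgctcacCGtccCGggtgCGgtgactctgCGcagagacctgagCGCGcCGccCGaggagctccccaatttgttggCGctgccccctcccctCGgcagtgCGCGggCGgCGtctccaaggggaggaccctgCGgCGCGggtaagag
Col8a1: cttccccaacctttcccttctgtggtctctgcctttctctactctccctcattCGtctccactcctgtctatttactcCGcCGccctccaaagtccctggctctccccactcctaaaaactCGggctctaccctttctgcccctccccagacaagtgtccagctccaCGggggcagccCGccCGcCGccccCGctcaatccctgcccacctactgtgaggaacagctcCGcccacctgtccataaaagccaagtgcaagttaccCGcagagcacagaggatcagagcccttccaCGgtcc
The Col4a4 window held 14 CG, the Col8a1 window 12, the Col4a2 window 33 and the Col4a1 window 37. The median over 33 windows of the 30 collagen genes with an entry was 12, and over 32851 windows of all genes it was 7 (quartiles 3 and 20). Methylation was not measured in these samples.

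Detection followed the classes unevenly. Of the genes with a probe, 7 of 11 fibrillar genes were tested and 9 of 10 genes of the basement membrane and its zone. Tested were also 3 of 5 beaded-filament and network genes, 3 of 6 fibril-associated genes and 1 of 3 transmembrane collagens. A probe of 14 genes was detected on all 12 arrays: Col1a1, Col1a2, Col3a1, Col5a1, Col5a2, Col11a1, Col4a1, Col4a2, Col4a5, Col18a1, Col6a1, Col8a1, Col16a1 and Col23a1. The 12 genes with a probe that were not tested were detected on few arrays. Col11a2 and Col27a1 were detected on 5 arrays each, and Col10a1, a cartilage collagen, on 4. Col9a3, Col17a1 and Col24a1 were each detected on 3 arrays, Col5a3 and Col9a2 on 2, and Col13a1 on 1. Col8a2, the partner chain of Col8a1, was detected on none of 12 arrays, nor were Col19a1 and Col25a1. Of the tested genes, 4 passed the filter through 1 group: Col7a1 and Col9a1 through saline RCA, Col14a1 through 5Aza LCA and Col4a6 through 5Aza RCA.

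**Figure D1:**
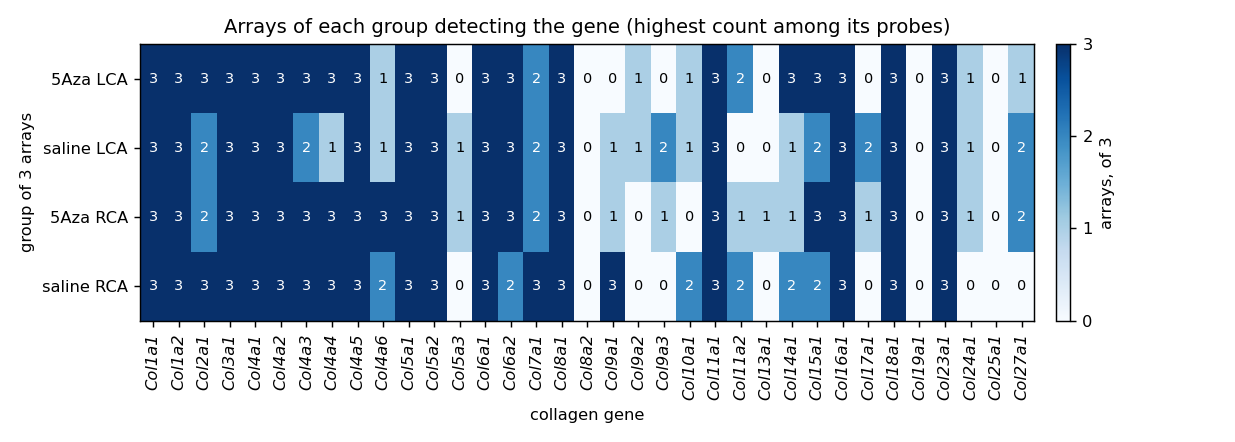
Number of arrays, out of 3 per group, that detected each of the 35 collagen genes with a probe (columns), by group (rows), taking the highest count among the gene's probes. Col4a3 and Col4a4 were detected on all 3 arrays of each group except saline LCA, where 2 and 1 arrays detected them, and Col8a2, Col19a1 and Col25a1 were detected on none.

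Arrays detected 21443 to 23251 probes each. The ligated arteries of saline mice were not alike: over all tested genes saline LCA 1 correlated at 0.857 with saline LCA 2 and 0.856 with saline LCA 4, which correlated at 0.971 with each other. With the arrays of the other groups, saline LCA 1 correlated at 0.915 to 0.940 and saline LCA 2 and 4 at 0.801 to 0.887. Values without saline LCA 1 are therefore given beside the results. For that group they rest on saline LCA 2 and 4, the arrays less like those of the other groups. The flushed RNA held endothelial markers at high level in all groups, with a mean log2 level over 9 tested markers of 9.23 to 9.32 in 5Aza LCA, 8.98 to 9.16 in saline LCA, 9.63 to 9.66 in 5Aza RCA and 9.56 to 9.65 in saline RCA. The mean over 9 macrophage markers was 6.56 to 7.73 in 5Aza LCA, 7.12 to 9.22 in saline LCA, 4.50 to 5.48 in 5Aza RCA and 4.24 to 4.99 in saline RCA. All 9 were called higher in saline LCA than in saline RCA, while of the endothelial markers 3 were called lower (Icam2, Tek and Vwf). The mean over 9 fibroblast markers was 7.36 to 7.97 in 5Aza LCA, 5.53 to 6.91 in saline LCA, 6.68 to 7.38 in 5Aza RCA and 6.31 to 7.08 in saline RCA. Between saline LCA and saline RCA 5 of these 9 were positive (median 0.08), and Clec3b, Mfap5 and Pi16 were called lower. The mean over 6 smooth muscle markers was 6.39 to 6.98 in 5Aza LCA, 7.03 to 7.28 in saline LCA, 6.38 to 6.60 in 5Aza RCA and 6.57 to 6.92 in saline RCA. Of 3 neutrophil markers 2, and of 2 red blood cell markers 1, were called higher in saline LCA than in saline RCA. Among all genes 5.29% were called higher and 6.24% lower in that comparison. In saline RCA the mean was 4.38 to 4.43 over the neutrophil markers and 4.33 to 4.60 over the red blood cell markers. Like that of the macrophage markers, these means lay around the lowest detected level of an array, 4.45 to 4.54. Markers near that level can enter the test through the groups where they are high, so these calls are not counted as support. The mean over 2 adipocyte markers was 7.32 to 9.30 in 5Aza LCA and 4.75 to 6.09 in saline LCA, and no lymphocyte or mesothelial marker was tested. The part of such cells in the collagen results was not tested, and in pooled RNA fewer cells of a type cannot be told apart from less RNA per cell.

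The question of what low flow does in saline mice was put by setting saline LCA against saline RCA. At an adjusted p under 0.05, 4 of the 23 collagens differed (17.4%), against 11.5% of all genes tested. Col4a3 and Col4a4, paired genes for chains of a type IV network best known from the kidney's filter, were lower in the ligated artery. Col1a1, a chain of the main fibre collagen, and Col8a1, a chain of the vascular network collagen, were higher. Among all genes 5.29% were higher and 6.24% were lower. The other 19 did not pass. The median log2 fold change of the 23 was -0.12, and that of all genes tested was -0.05.

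Col4a4 had log2 intensities of 5.10, 4.17 and 4.19 in saline LCA 1, 2 and 4, against 6.86, 7.03 and 7.28 in saline RCA 1, 2 and 4. All ligated samples lay below all unligated ones, and only saline LCA 1 among the ligated ones had a detected signal. The fold change was -2.57 on the log2 scale (SE 0.26, limma adjusted p = 0.000583, n = 3 each). Arrays 2 and 4 lay under the lowest detected level of any array, 4.45 to 4.54, so the size of the fall rests in part on signals near background. Without saline LCA 1 no ligated array detected Col4a4, and the signal was at least 5.98-fold lower (limma adjusted p = 4.999e-06). With the authors' normalized values or without background correction the change was -1.25 on the log2 scale and still passed.

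Col4a3 had 7.86, 4.20 and 4.52 in saline LCA 1, 2 and 4, against 8.84, 8.75 and 8.72 in saline RCA. Saline LCA 1 lay close to the 5Aza LCA samples (7.22 to 7.55), far above the other pair of its group, and 2 of the 3 ligated arrays detected the gene. The fold change was -3.24 (SE 0.70, limma adjusted p = 0.0188). Leaving out saline LCA 1 gave -4.39 (adjusted p = 5.228e-07), and leaving out saline LCA 2 or saline LCA 4 gave -2.58 or -2.75, which did not pass (adjusted p = 0.0920 and 0.0914). With the authors' normalized values or without background correction it was -1.98 and passed. It did not pass when a saline RCA array was left out, with adjusted p-values of 0.0548 to 0.0616.

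The other type IV genes did not follow. Col4a1, which with Col4a2 makes the network common to all vessels, had 9.69, 9.56 and 9.23 in saline LCA and 9.42, 9.26 and 9.31 in saline RCA, and the groups overlapped. Its fold change was 0.16 (95% interval -0.28 to 0.60). Col4a2 had 6.76, 7.96 and 8.07 in saline LCA and 7.06, 7.54 and 6.98 in saline RCA, a fold change of 0.41 (-0.47 to 1.28). Col4a5 and Col4a6, an adjacent pair on the X chromosome that also encode type IV chains, had -0.20 (SE 0.40) and -0.19 (SE 0.23). Of the other genes of the basement membrane zone, Col18a1, whose protein holds the endostatin fragment, had 0.39 (SE 0.21), Col15a1 0.53 (SE 0.43) and Col7a1, the collagen of anchoring fibrils, -0.06 (SE 0.16). Averaged over both treatments, the flow effect of Col4a4 minus that of Col4a1 was -2.12 on the log2 scale, and that of Col4a3 minus Col4a1 was -2.49. These pairs were chosen with the results known, so the differences are given with no test.

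Col1a1 had 6.81, 7.73 and 7.49 in saline LCA, against 5.08, 5.86 and 6.13 in saline RCA. Every ligated sample lay above every unligated one. The fold change was 1.65 (SE 0.33, limma adjusted p = 0.0147), a 3.15-fold higher signal. With the authors' normalized values or without background correction it was 0.95 and passed. It was 1.92 without saline LCA 1 (limma adjusted p = 0.00161), but did not pass without saline LCA 2 (1.47, adjusted p = 0.0783), saline LCA 4 (1.59, adjusted p = 0.0690) or saline RCA 1 (1.35, adjusted p = 0.0553).

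Col1a2, the partner chain of type I collagen, had 9.41, 9.15 and 8.91 in saline LCA, against 9.36, 9.39 and 9.53 in saline RCA. Its fold change was -0.27 (95% interval -0.69 to 0.14). The averaged flow effect of Col1a1 minus that of Col1a2 was 1.64 on the log2 scale, again for a pair chosen with the results known and with no test. Col3a1, the type III chain of elastic vessels, had 7.51, 8.67 and 7.31 in saline LCA and 7.70, 8.16 and 7.99 in saline RCA. The change was -0.12 (95% interval -0.86 to 0.62). The type V chains that start fibrils, Col5a1 and Col5a2, had -0.16 (SE 0.165) and 0.15 (SE 0.24), and Col11a1 had -0.19 (SE 0.15). Col2a1, best known from cartilage, had 4.35, 6.58 and 6.83 in saline LCA and 4.63, 5.27 and 4.65 in saline RCA, so that the high values came from saline LCA 2 and 4. Its fold change was 1.07 (SE 0.53, limma adjusted p = 0.203), and without saline LCA 1 it was 1.85 (adjusted p = 0.000986).

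Col8a1 had 9.54, 11.58 and 11.25 in saline LCA, against 9.16, 8.73 and 8.46 in saline RCA. The groups did not overlap, and saline LCA 1 was the ligated sample nearest to the unligated ones. The fold change was 2.01 (SE 0.44, limma adjusted p = 0.0194), a 4.02-fold higher signal. The value without saline LCA 1 was 2.63 (adjusted p = 6.036e-05), and without saline LCA 2 or saline LCA 4 it was 1.61 or 1.77 and did not pass (adjusted p = 0.0950 and 0.0943). Without saline RCA 2 or saline RCA 4 the adjusted p was 0.0645 or 0.0682. The chains of type VI collagen, which forms beaded filaments around cells, did not pass: Col6a1 had -0.23 (SE 0.32) and Col6a2 0.10 (SE 0.31).

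Of the fibril-associated genes, Col9a1 had 4.21, 4.19 and 4.25 in saline LCA and 4.49, 5.09 and 4.74 in saline RCA. No saline LCA array detected the probe, which passed the filter through saline RCA alone, so only a bound can be given: at least 1.24-fold lower (limma adjusted p = 0.129). Col16a1 had -0.55 (SE 0.36) and Col14a1 0.39 (SE 0.42). The 1 tested transmembrane collagen, Col23a1, had -0.26 (SE 0.32). With saline LCA 1 left out, the 4 collagens above and Col2a1 were called by flow under saline, against 30.9% of all genes. Col17a1, a collagen of cell-anchoring junctions, crossed the threshold too, but it entered the test in that setting through saline LCA, the group where it is high, and supports nothing.

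**Figure D2:**
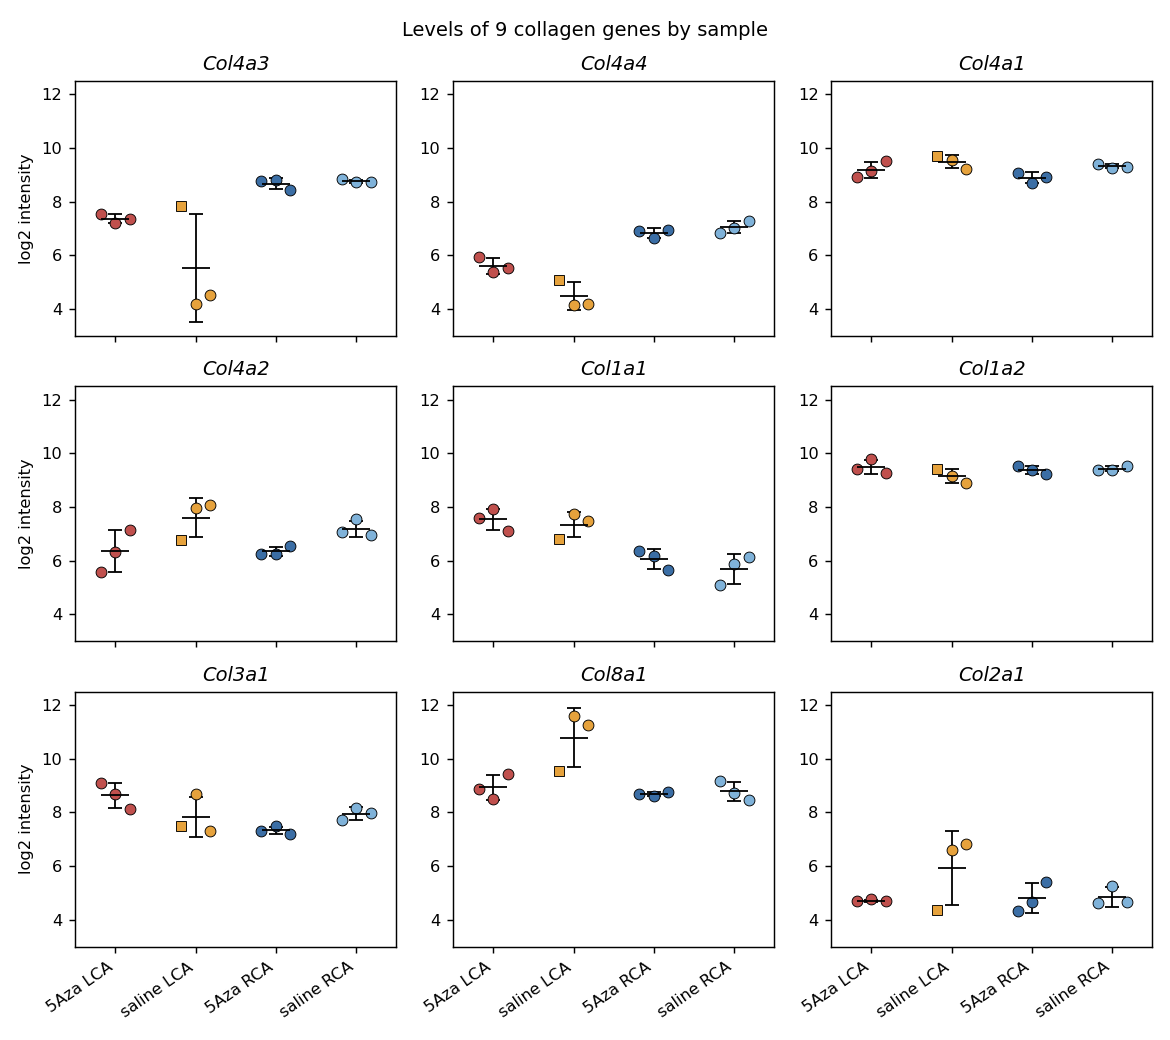
Log2 intensity (y axis) of 9 collagen genes in each of the 12 samples, by group (x axis); points are samples, the square is saline LCA 1, and the black bars are the group mean and SD (n = 3). The ligated samples of Col4a3 and Col4a4 lie below all unligated ones, those of Col1a1 lie above them, and Col8a1 was high in saline LCA 2 and 4 at 11.58 and 11.25.

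Flow under 5Aza was addressed by comparing 5Aza LCA with 5Aza RCA. None of the 23 collagens passed in limma, against 0.453% of all genes (48 genes). At an unadjusted p under 0.05 there were 4 collagens and 1292 genes. Col4a4 had 5.95, 5.37 and 5.55 in 5Aza LCA 1, 2 and 4, against 6.92, 6.64 and 6.97 in 5Aza RCA 1, 3 and 4, and the groups did not overlap. The fold change was -1.22 (SE 0.26, limma adjusted p = 0.0743). Col1a1 had 7.60, 7.92 and 7.12 in 5Aza LCA, against 6.38, 6.16 and 5.66 in 5Aza RCA, again without overlap. The ligated side was higher by 1.48 (SE 0.33, adjusted p = 0.0881).

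Col3a1 had 9.09, 8.67 and 8.14 in 5Aza LCA, against 7.32, 7.48 and 7.19 in 5Aza RCA. Every ligated sample lay above every unligated one, with a fold change of 1.30 (SE 0.34, limma adjusted p = 0.147). Col14a1, which coats fibrils and passed the filter through 5Aza LCA alone, had 5.33, 5.17 and 6.51 in 5Aza LCA and 4.31, 4.90 and 4.37 in 5Aza RCA (1.15, SE 0.42, adjusted p = 0.304). Col4a3 had 7.55, 7.22 and 7.36 in 5Aza LCA, against 8.76, 8.81 and 8.44 in 5Aza RCA. These samples did not overlap either, but with the spread of saline LCA in the shared error the fold change of -1.29 had an SE of 0.70 (adjusted p = 0.485). With only the 5Aza groups in the fit its adjusted p was 0.0466. Col8a1 had 8.89, 8.50 and 9.42 in 5Aza LCA and 8.68, 8.59 and 8.76 in 5Aza RCA, and the groups overlapped (0.26, 95% interval -0.70 to 1.22). Without saline LCA 1 in the shared fit, Col1a1 (1.48, adjusted p = 0.0323), Col4a3 (-1.30, adjusted p = 0.00426) and Col4a4 (-1.22, adjusted p = 0.00895) passed, against 2.60% of all genes.

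**Figure D3:**
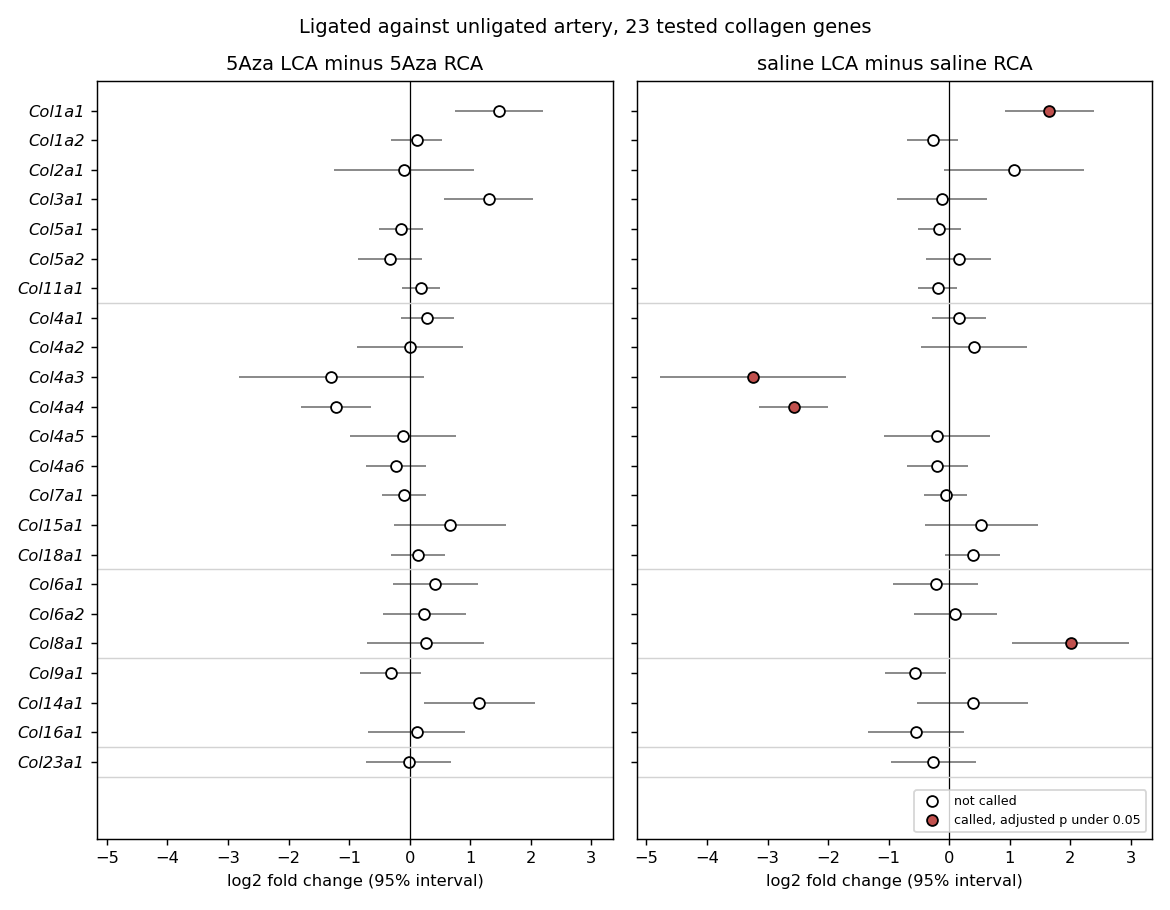
Log2 fold change, with its 95% interval, of the 23 tested collagens between ligated and unligated artery under 5Aza (left) and under saline (right), with grey lines between the 5 classes. Filled points passed at an adjusted p under 0.05: Col1a1 at 1.65, Col8a1 at 2.01, Col4a3 at -3.24 and Col4a4 at -2.57 under saline, and none under 5Aza.

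Averaged over both treatments, flow changed the same 4 collagens as under saline, against 12.9% of all genes. The averages were -1.89 for Col4a4 (SE 0.19, limma adjusted p = 0.000268), 1.57 for Col1a1 (SE 0.24, adjusted p = 0.00280), -2.27 for Col4a3 (SE 0.50, adjusted p = 0.0163) and 1.13 for Col8a1 (SE 0.31, adjusted p = 0.0363). With 1 array left out at a time, the average passed in 12 of 12 fits for Col4a4, Col1a1 and Col4a3, but in 2 of 12 for Col8a1, which passed without saline LCA 1 or 5Aza LCA 2 and otherwise had adjusted p-values up to 0.0941. The Col8a1 average also did not pass without the detection filter (adjusted p = 0.0897). Leaving out saline LCA 1 gave 6 calls, with Col2a1 and Col15a1 added, against 30.6% of all genes. The averages include the saline difference and are no separate evidence. The difference between the flow effects of the treatments was tested as an interaction, flow under 5Aza minus flow under saline. None of the 23 collagens passed, nor did any gene (0% called). At an unadjusted p under 0.05 there were 3 collagens and 1009 genes. The interactions were 1.35 for Col4a4 (SE 0.37, limma adjusted p = 0.380), 1.42 for Col3a1 (SE 0.48, adjusted p = 0.472), -1.74 for Col8a1 (SE 0.62, adjusted p = 0.478) and 1.95 for Col4a3 (SE 0.99, adjusted p = 0.542). With saline LCA 1 left out, interactions passed for Col4a3 (3.10, adjusted p = 0.000106), Col4a4 (1.64, adjusted p = 0.00461), Col8a1 (-2.37, adjusted p = 0.00282) and Col2a1 (-1.94, adjusted p = 0.0125), against 11.2% of all genes. These calls depend on whether that array is kept, and that of Col4a4 rests on a ligated saline group in which no array then detected it.

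Where a gene had several tested probes, its probes could be set against each other. The 3 probes of Col4a4 gave -2.57, -1.66 and -2.31 for flow under saline and all were called, against 8.24% of all probes fitted singly. They gave -1.22, -1.15 and -1.71 under 5Aza. The 2 probes of Col8a1 gave 2.01 and 2.56 under saline, both called, and 0.26 and 0.69 under 5Aza. The 2 probes of Col3a1 gave 1.30 and 1.68 under 5Aza and -0.12 and 0.04 under saline. The 5 probes of Col5a2 spread from -0.18 to 0.66 under saline and from -0.73 to 0.07 under 5Aza, with none called. For Col18a1 the probes disagreed in sign under 5Aza, from -0.26 to 0.83. Those of Col23a1 disagreed under saline (-0.26 and 0.08) and under 5Aza (-0.02 and 0.27), and those of Col6a1 under saline (-0.23 and 0.03). In 5Aza LCA minus saline LCA the Col5a2 probes ran from -1.17 to -0.42, with none called. The probe that stood for Col5a2 gave the -0.42. Col4a3 and Col1a1 had 1 probe each, so nothing on the array checks them.

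**Figure D4:**
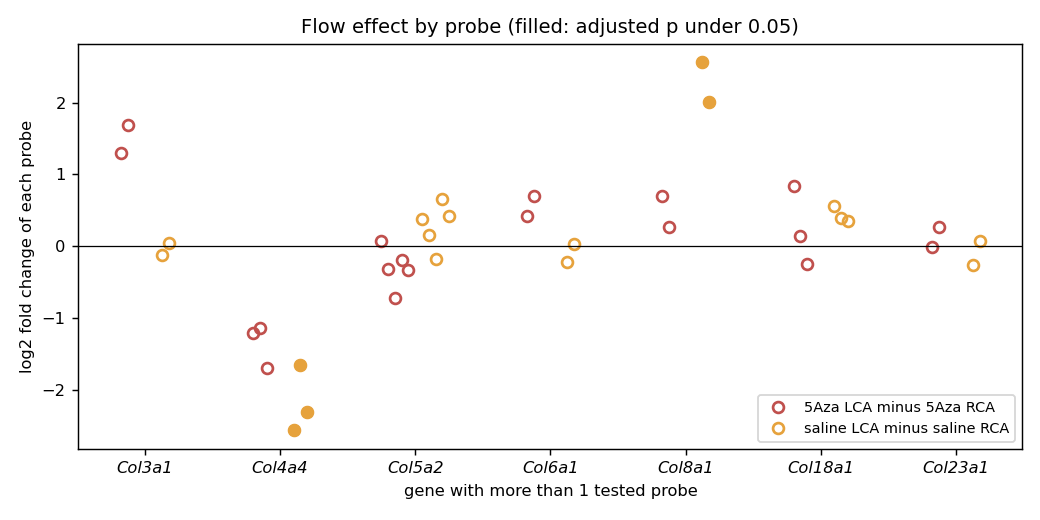
Log2 fold change between ligated and unligated artery for each tested probe of the 7 collagens with more than 1 (x axis), under 5Aza and under saline; filled points passed at an adjusted p under 0.05 over all probes. The 3 probes of Col4a4 lie below 0 in both treatments, and the 2 probes of Col8a1 reach 2.01 and 2.56 under saline.

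The effect of 5Aza in the ligated artery was addressed by comparing 5Aza LCA with saline LCA. No collagen passed in limma, against 0.462% of all genes (49 genes). At an unadjusted p under 0.05 there were 8 collagens and 1971 genes. Col4a4 was at 5.95, 5.37 and 5.55 in 5Aza LCA, against 5.10, 4.17 and 4.19 in saline LCA, and the groups did not overlap. Its fold change was 1.14 (SE 0.26, limma adjusted p = 0.0837). Col8a1 was at 8.89, 8.50 and 9.42 in 5Aza LCA, against 9.54, 11.58 and 11.25 in saline LCA. These groups did not overlap either, though saline LCA 1 lay just above 5Aza LCA 4, and the fold change was -1.85 (SE 0.44, adjusted p = 0.0890).

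Col6a1 was at 5.69, 6.49 and 6.11 in 5Aza LCA and 5.20, 5.16 and 4.47 in saline LCA (1.16, SE 0.32, limma adjusted p = 0.110). Col4a2 was at 5.59, 6.34 and 7.14 in 5Aza LCA and 6.76, 7.96 and 8.07 in saline LCA (-1.24, SE 0.40, adjusted p = 0.142). Col4a3 had a fold change of 1.85 (SE 0.70, adjusted p = 0.193), and saline LCA 1, at 7.86, lay above all 5Aza LCA samples. With that array left out, 8 collagens passed, counting Col14a1, against 21.2% of all genes. Higher in 5Aza LCA were Col4a3 (3.00, adjusted p = 5.561e-06), Col6a1 (1.27, adjusted p = 0.0277) and Col4a4, by at least 2.22-fold (adjusted p = 0.000943) since neither remaining saline LCA array detected it. Col14a1 was at least 2.30-fold higher (adjusted p = 0.0268), but it passed the filter through 5Aza LCA, the group where it is high, and is not counted as support. Lower were Col8a1 (-2.48, adjusted p = 0.000165), Col2a1 (-1.99, adjusted p = 0.00116), Col4a2 (-1.66, adjusted p = 0.00896) and Col18a1 (-0.71, adjusted p = 0.0276). Without saline LCA 2 or saline LCA 4 none passed. Markers of other cells differed between the same groups, with all arrays in. Of 9 fibroblast markers all were positive in 5Aza LCA minus saline LCA (median 1.74, 8 with an unadjusted p under 0.05), of 9 macrophage markers none was (median -1.25, 5 with such a p), of 3 neutrophil markers none (median -1.36) and of 2 adipocyte markers both (median 2.60). Of 6 smooth muscle markers 1 was positive (median -0.52). Clec3b and Mfap5 among the fibroblast markers were called higher, and both calls were lost without saline LCA 2 or saline LCA 4, among others (4 and 2 of 12 fits passed). The part of these cells in the collagen values was not tested.

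In the unligated artery, 5Aza RCA was compared with saline RCA, and no collagen and no gene passed in limma (0% called). At an unadjusted p under 0.05 there were 0 collagens and 604 genes. The collagens with the smallest p were the vascular type IV pair and Col3a1. Col4a1 was at 9.09, 8.70 and 8.91 in 5Aza RCA, against 9.42, 9.26 and 9.31 in saline RCA (-0.43, SE 0.20, limma adjusted p = 0.877). Col4a2 was at 6.27, 6.23 and 6.54 in 5Aza RCA, against 7.06, 7.54 and 6.98 in saline RCA (-0.84, SE 0.40, adjusted p = 0.884). Col3a1 was at 7.32, 7.48 and 7.19 in 5Aza RCA, against 7.70, 8.16 and 7.99 in saline RCA (-0.62, SE 0.34, adjusted p = 0.945). The second Col3a1 probe gave -1.47 (unadjusted p = 0.00322, adjusted p = 0.587 over all probes in limma). None of these differences passed the adjustment, over all genes or, for the second probe, over all probes. Col4a4 had -0.21 (95% interval -0.79 to 0.36), Col1a1 0.38 (-0.35 to 1.11) and Col8a1 -0.11 (-1.07 to 0.86).

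**Figure D5:**
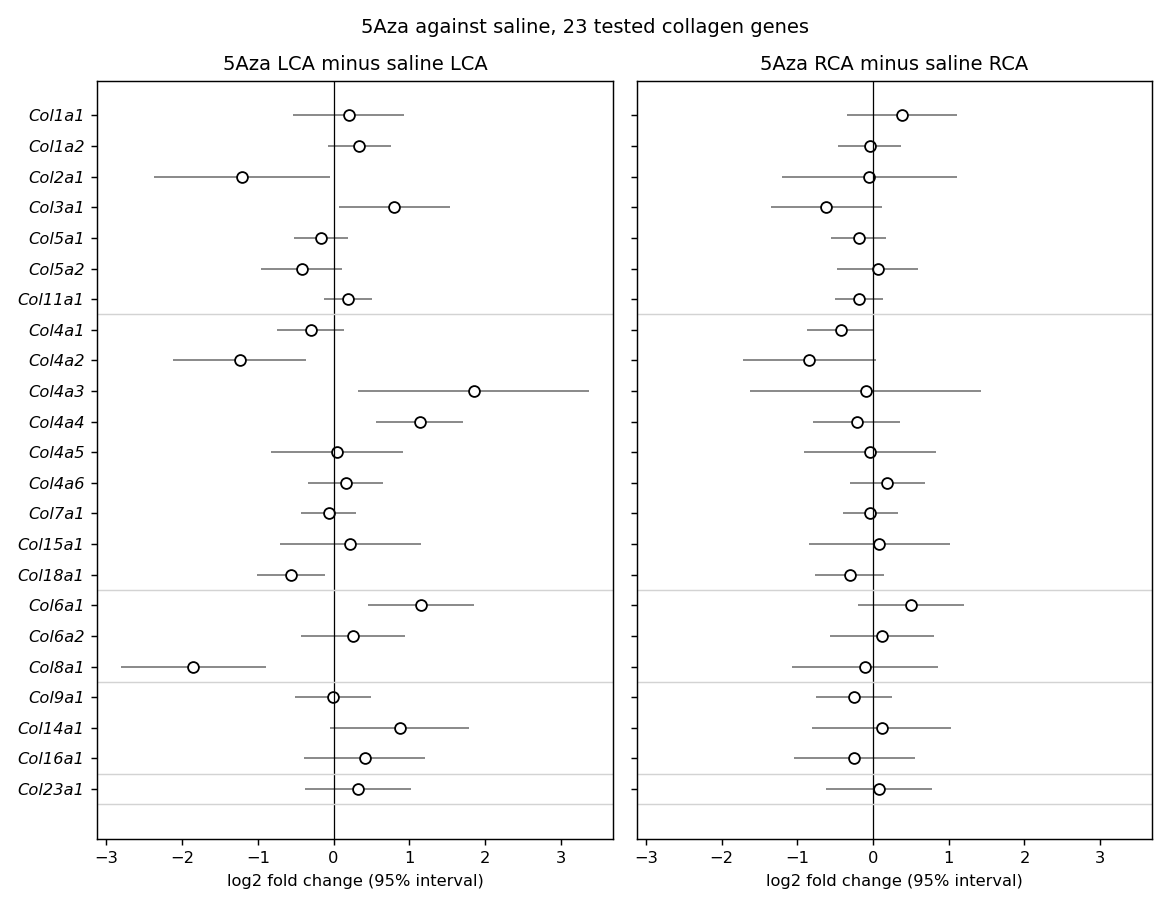
Log2 fold change, with its 95% interval, of the 23 tested collagens between 5Aza and saline mice in the ligated (left) and the unligated artery (right), with grey lines between the 5 classes. No point passed at an adjusted p under 0.05, and the widest departures in the ligated artery were Col8a1 at -1.85 and Col4a3 at 1.85.

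Genes that fold, process, bind and degrade collagen were read from lists beside the collagens, all against the same 11.5% for flow under saline. Of 17 tested enzymes that fold and modify the chains, 1 passed: P4ha2, a subunit of the prolyl hydroxylase, was lower (-1.55, SE 0.32, limma adjusted p = 0.0156), at 6.71, 6.41 and 5.49 in saline LCA, against 7.50, 8.26 and 7.50 in saline RCA. Of 6 genes for processing and cross-linking, 2 were lower. Lox, which cross-links fibres, had -0.87 (adjusted p = 0.0435) and Pcolce2, an enhancer of propeptide removal, had -2.21 (adjusted p = 0.0255). Of 9 genes for proteoglycans and assembly, 1 passed: Bgn, a small proteoglycan of the fibre surface, was lower (-0.78, adjusted p = 0.0175). With 1 array left out at a time, P4ha2 passed in 9, Lox in 2, Pcolce2 in 7 and Bgn in 8 of 12 fits, and each was lost without saline LCA 2 or saline LCA 4, among other arrays. In the average over treatments 3 of the 9 proteoglycan and assembly genes were called, against 12.9% of all genes. Dcn (1.09, limma adjusted p = 0.0223) and Lum (1.75, adjusted p = 0.00985), which bind fibrils, were higher and Bgn (-0.70, adjusted p = 0.00499) lower. Lum and Bgn passed in 12 of 12 such fits and Dcn in 7, being lost without saline LCA 2, saline LCA 4, saline RCA 2, 5Aza LCA 4 or 5Aza RCA 1. Of the 17 folding enzymes P4ha2 (-1.29) was called in the average, and of the 6 processing genes Lox (-1.01). Both were lower and passed in 12 of 12 such fits. These averages include the saline difference.

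Of 11 genes for degradation and uptake, 3 were higher under saline and none lower. Mmp13, a collagenase, was at 6.46, 9.82 and 9.59 in saline LCA, against 4.28, 4.40 and 4.95 in saline RCA (4.08, SE 0.82, limma adjusted p = 0.0139). Mmp12, an elastase of macrophages, had 3.43 (adjusted p = 0.00470), and Mrc1, a macrophage receptor that takes up collagen fragments, was at least 4.98-fold higher (adjusted p = 0.0172), since no saline RCA array detected it. Mrc1 thus entered the test through other groups, and its call is not counted as support. Mmp12 passed under saline in 12 of 12 fits with 1 array left out, while Mmp13 passed in 8 and Mrc1 in 7, both lost without saline LCA 2 or saline LCA 4, among other arrays. Mmp12 was also called by flow under 5Aza (3.34, adjusted p = 0.0229), against 0.453% of all genes, and in 8 of 12 such fits, being lost without 5Aza LCA 2, 5Aza LCA 4, 5Aza RCA 1 or 5Aza RCA 4. The 9 macrophage markers were higher in the same comparison, and their part in these values was not tested. In the average over treatments Mmp12 (3.39), Mmp13 (2.91) and Mrc1 were called higher, against 12.9% of all genes. With 1 array left out, Mmp12 and Mmp13 passed there in 12 and Mrc1 in 8 of 12 fits. The averages include the saline difference, and the Mrc1 call is again not counted as support.

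Of 5 tested collagen receptors, Lair1, an inhibitory receptor of leukocytes, was at least 3.75-fold higher in saline LCA than in saline RCA (limma adjusted p = 0.000931), and Ddr1, a receptor tyrosine kinase, was lower (-1.08, adjusted p = 0.0232). No saline RCA array detected Lair1, so it entered the test through other groups, and this call is not counted as support. The Lair1 call passed in 12 of 12 fits with 1 array left out and that of Ddr1 in 8, being lost without saline LCA 2, saline LCA 4, saline RCA 2 or saline RCA 4. In the ligated artery, Ddr1 was higher (1.56, adjusted p = 0.0323) and Lair1 lower (-1.93, adjusted p = 0.00973) in 5Aza LCA than in saline LCA, against 0.462% of all genes. There Lair1 passed in 9 of 12 such fits and Ddr1 in 4, and both were lost without saline LCA 2, saline LCA 4 or 5Aza LCA 2. Of 10 laminins and other partners of type IV collagen in the basement membrane, 3 passed under saline. Lamb1 (2.40, adjusted p = 0.0265) and Lamc1 (1.55, adjusted p = 0.0165), chains of widespread laminins, were higher, and Lamb2 (-1.89, adjusted p = 0.0147), a laminin chain of mature basement membranes, was lower. Lamb2 was at 8.73, 6.89 and 7.01 in saline LCA, against 9.53, 9.35 and 9.41 in saline RCA. As for Col4a3, saline LCA 1 was the ligated sample nearest to the unligated ones. Under saline Lamb1 passed in 7 and Lamb2 and Lamc1 in 8 of 12 fits with 1 array left out, and all were lost without saline LCA 2, saline LCA 4, saline RCA 1 or saline RCA 2. Lamc1 was lower in 5Aza LCA than in saline LCA (-1.87, adjusted p = 0.0374). That call passed in 4 of 12 such fits and was lost without saline LCA 2 or saline LCA 4, among other arrays. In the average over treatments, which includes the saline difference, Lamb1 (1.81), Nid2 (0.93) and Lamc1 (0.76) were called higher. Lamb2 (-0.97) and Lama5 (-0.43) were called lower, against 12.9% of all genes. Lamb1 passed there in 11, Nid2 in 5, Lama5 in 3, Lamc1 in 2 and Lamb2 in 1 of 12 such fits. Lair1 was also called higher in the average, and this is again not counted as support.

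Without saline LCA 1, flow under saline called more genes of these lists, against 30.9% of all genes. Of 18 folding enzymes then tested 3 were higher and 4 lower, of 7 processing genes 2 were higher and 3 lower, and of 9 proteoglycans 1 was higher and 2 lower. Of 11 genes for degradation 6 were higher and 0 lower, of 6 receptors 1 was higher and 2 lower, and of 10 basement membrane partners 5 were higher and 2 lower.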

How the data were processed

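RNA from 12 carotid artery samples was hybridised to Illumina MouseWG-6 v2 bead arrays. The authors deposited non-normalized intensities per probe with a detection p-value for each, exported from GenomeStudio 2010.3 per the submitters' processing notes, and a table of quantile-normalized intensities on a linear scale, whose log2 values served here as an alternative. Probes were named from the array annotation (34885 with 1 gene symbol, 18 with several and 10378 with none).

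The intensities were corrected by normexp against negative controls inferred from the deposited detection p-values, quantile normalized and put on the log2 scale (neqc, offset 16, limma 3.58.1 in R 4.3.3). Probes detected at p under 0.05 on all 3 arrays of a group were kept (21979), and the brightest kept probe stood for its gene. A linear model over the 4 groups with empirical Bayes variances and Benjamini-Hochberg adjustment over 10596 genes gave every adjusted p. The fit was also run on simulated arrays built from the means and spreads of these data. "Called" or "passed" means an adjusted p under 0.05, and a fold change is a log2 difference unless written as "-fold". Where no array of a group detected the probe of a gene that was named with a fold change between those groups, a lower bound against the lowest detected signal is given. Levels are not compared between genes. With 3 arrays per group, the precision of every comparison is limited.

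Every collagen is accounted for by class, with values per sample for those called in any comparison or, where none was called, the 3 with the smallest p. Other examples were named after their values were seen. Of each other list except the marker lists, the genes called with all arrays in were named. The members, the marker lists and the other gene lists were chosen with earlier results of these data known. For the other lists, fits that left out each array in turn, saline LCA 1 included, were added with the data already seen. The labels do not say which samples shared a chip. Promoter windows came from RefSeq (GRCm38.p6).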

Additional observations from a re-analysis of the deposited data

Results flagged for a closer look

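A second probe for Col2a1, the cartilage collagen, gave a signal though it lay outside the tested set. It was detected on 2 of 3 saline LCA arrays and on no other array, at log2 intensities of 4.34, 6.29 and 6.56 in saline LCA 1, 2 and 4 and of 4.27, 4.26 and 4.36 in saline RCA 1, 2 and 4. The difference between those groups was 1.43 on the log2 scale and was not tested. The count of such signals also asked for a minimum difference of 1.5-fold. Among 45 collagen probes outside the tested set, 1 (2.22%) met it for flow under saline, against 1.25% of 23302 such probes on the whole array. By detection alone, on 2 saline LCA arrays and no saline RCA array, probes of Col27a1, Col17a1 and Col9a3 also qualified. Their differences were 0.04, 0.33 and 0.48. No share over the whole array was taken for detection alone. The tested Col2a1 probe was also high in saline LCA 2 and 4, at 6.58 and 6.83, and not in saline LCA 1, at 4.35.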

How the results depend on the processing

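Col4a4 passed for flow under saline in 26 of 26 alternatives (-2.86 to -1.25, highest adjusted p 0.0201), Col1a1 in 21, Col8a1 in 18 and Col4a3 in 17, and no value reversed. Genes called by flow under saline (1221) became 616 without the detection filter, 3743 with array weights, 129 with only the groups compared and 76 with a minimum fold, and 182 to 3467 with 1 array left out. The collagens called (4) became 2, 6, 1 and 1 in those settings, and 1 to 6 with 1 array left out (the 6 include Col17a1, which entered the test through saline LCA). Under 5Aza the genes (48) became 78 with a trended robust prior, 156 with weights and 4 with a minimum fold (4 to 292 with 1 array left out), and the collagens (0) became 1 with an offset of 50, 1 with the mean of probes, 2 with weights and 1 with only the groups compared (0 to 3). For average flow the genes (1364) became 897 without the filter, 2129 per probe, 3395 with weights and 67 with a minimum fold (585 to 3438), and the collagens (4) 7 with weights and 1 with a minimum fold (3 to 6). For 5Aza in the ligated artery the genes (49) became 20 without the filter, 104 with the trended prior, 2254 with weights, 0 with only the groups compared and 0 with a minimum fold (0 to 2378), and the collagens (0) 1 with the trended prior and 8 with weights (0 to 8). Both counts of 8 include Col14a1, which passed the filter through 5Aza LCA. In the unligated artery the genes (0) became 1 with the trended prior (0 to 1). Interactions (0 genes) became 1 without the filter, 1 with the trended prior and 847 with weights (0 to 1254), and for collagens (0) 4 with weights (0 to 4). The cause of these differences was not tested.

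The labels do not say whether same-numbered left and right arteries came from the same mice. Their deviations from the group means correlated at -0.0276 to 0.0560 over 5 pairs, too few to show whether they did. With the replicate number as a block, flow under saline called 702 genes, or 276 with blocks within treatment, where 2 collagens passed (Col1a1 and Col4a4). The blocks gave 13 and 4 genes under 5Aza and 536 and 287 genes for average flow, with 2 collagens in the block within treatment. For 5Aza in the ligated artery the block by number gave 0 genes, and that by the description's number 21. A chip block was not run because the chips are not given.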
